A study of Mus musculus with 8 samples.

Results

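The 5 genes described here, Th, Ddc, Gch1, Slc18a2 and Slc6a3, encode the enzymes that make dopamine and the transporters that store it and take it back up. They were taken by gene symbol from a table of 54532 mouse genes, and each symbol matched 1 row. RNA was sequenced from tissue labelled substantia nigra, whose dopamine neurons degenerate in Parkinson's disease. All mice were male and of the C57BL/6 strain, and there were 4 groups of 2 libraries each. The first group was control, whose sample titles read WT for wild type. The second, the vector group, received AAV-α-synuclein, an adeno-associated virus with a gene for α-synuclein, the main protein of Lewy bodies. The third received AKG (α-ketoglutarate, an intermediate of the TCA cycle, taken in the diet according to the series title), and the fourth, the combined group, received AAV-α-synuclein and AKG. The labels are silent on whether an empty vector was given to the control and AKG mice, and do not say which promoter drove α-synuclein, how old the mice were, or how long and at what dose they were treated. They also do not say whether the 2 libraries of a group came from separate animals or from pooled tissue, so p-values measure only the spread between these samples, which may be technical.

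Dopamine is made from tyrosine in 2 enzymatic steps. Tyrosine hydroxylase (Th) makes L-DOPA and is rate-limiting, and aromatic L-amino acid decarboxylase (Ddc) turns L-DOPA into dopamine. Tyrosine hydroxylase needs tetrahydrobiopterin (BH4), whose synthesis begins with GTP cyclohydrolase (Gch1). The vesicular monoamine transporter VMAT2 (Slc18a2) loads dopamine into vesicles, and the dopamine transporter DAT (Slc6a3) in the plasma membrane takes released dopamine back into the neuron. Th, Ddc, Gch1 and Slc18a2 also serve noradrenaline neurons, and Ddc, Gch1 and Slc18a2 serve serotonin neurons, whereas Slc6a3 is largely restricted to dopamine neurons.

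The start regions of the 5 genes are shown because all 5 genes had the same highest and lowest groups, and the lines let shared and unshared promoter letters be seen. RefSeq start windows on build GRCm38.p6 were matched for 5 of 5 genes, 6 windows in all, since Ddc has 2 starts. Each line runs 5′ to 3′ on the gene's own strand from 100 bases before the start to 20 bases after it. Capitals mark the cAMP response element TGACGTCA in Th and Slc18a2, its short core TGACG and a CCAAT box in Gch1, the Nurr1 element (AAAGGTCA, read on the other strand) and an inverted CCAAT box in the upstream and downstream Ddc starts, and the GC boxes (GGGCGG on either strand) in Slc6a3.
Th, chr7:142899976-142900095, minus strand: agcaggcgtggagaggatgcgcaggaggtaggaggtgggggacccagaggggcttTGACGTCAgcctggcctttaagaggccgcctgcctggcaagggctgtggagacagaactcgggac
Slc18a2, chr19:59260778-59260897, plus strand: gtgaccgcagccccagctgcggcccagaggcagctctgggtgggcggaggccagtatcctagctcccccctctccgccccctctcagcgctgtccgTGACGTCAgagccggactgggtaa
Gch1, chr14:47189394-47189513, minus strand: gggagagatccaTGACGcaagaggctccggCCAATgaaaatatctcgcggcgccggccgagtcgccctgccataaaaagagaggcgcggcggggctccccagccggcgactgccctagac
Ddc, upstream start, chr11:11898125-11898244, minus strand: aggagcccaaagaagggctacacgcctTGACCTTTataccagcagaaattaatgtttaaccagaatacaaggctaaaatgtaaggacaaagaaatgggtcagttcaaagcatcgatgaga
Ddc, downstream start, chr11:11890389-11890508, minus strand: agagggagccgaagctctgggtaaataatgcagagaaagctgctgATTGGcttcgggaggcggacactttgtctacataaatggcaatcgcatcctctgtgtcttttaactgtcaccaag
Slc6a3, chr13:73536647-73536766, plus strand: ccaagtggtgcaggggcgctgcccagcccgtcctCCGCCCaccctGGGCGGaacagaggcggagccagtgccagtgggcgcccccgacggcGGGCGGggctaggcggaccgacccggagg

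Motifs were searched on both strands of the 300-base windows, which run from 250 bases before to 50 after the start. The full cAMP response element lay at -45 to -38 in Th and spanned the start at -4 to 4 in Slc18a2, and 1.79% of the 32851 mouse start windows held it. Its short core TGACG, which is part of the full element, occurred in 3 of the 6 windows (Th, Slc18a2 and Gch1) and in 20.8% of all windows. The Nurr1 element of the upstream Ddc start, at -73 to -66, overlapped a TATAAA match on the same strand, and 1.51% of all windows held AAAGGTCA. The homeodomain letters TAATCC and TAATTA were in 0 of the 6 windows, against 7.06% and 5.29% of all windows. The GC box was the most frequent of the motifs, in 4 of the 6 windows and 35.7% of all, and CCAAT occurred in 37.4% of all windows. No single one of these motifs was in all 6 windows. These matches describe letters in a window, and whether any of them bears on the levels below was not tested.

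Reads counted in genes ranged from 16544190.0 to 19125423 per library, so that for a transcript of 1 kb a single read made 0.0515 to 0.0590 FPKM (fragments per kilobase of gene, scaled to library size, the deposited unit). Control library 1 was unlike the rest. Spearman correlations with the other libraries averaged 0.926 for it, against 0.971 to 0.975 for the remaining 7. In it the summed level of 6 pineal gland genes was 40.0 FPKM, against at most 2.18 FPKM elsewhere. The neuropeptide gene Hcrt was at 2.14 FPKM there and at 116 to 224 FPKM elsewhere, and Avp was at 1497 FPKM there and at most at 425 FPKM elsewhere. The pineal and neuropeptide lists were chosen after the data were seen. The differences of the 5 genes from control, the interactions, the ratio tests and the pathway medians are therefore also given without this library.

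All 5 genes were higher in both control libraries than in any of the other 6, and all 5 were lowest in the AKG libraries. Among the 13716 genes tested (those averaging 1 FPKM or more across all libraries), 12.2% had both control libraries above all the others and 2.54% had both AKG libraries below all the others. Th, Ddc, Slc6a3 and Slc18a2 passed that filter, and Gch1 missed it with a mean of 0.964 FPKM, so 4 of the 5 genes were tested. In bulk tissue, fewer dopamine neurons, less RNA per neuron and differences in what tissue was sampled cannot be told apart, for these and all results below.

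**Figure D1:**
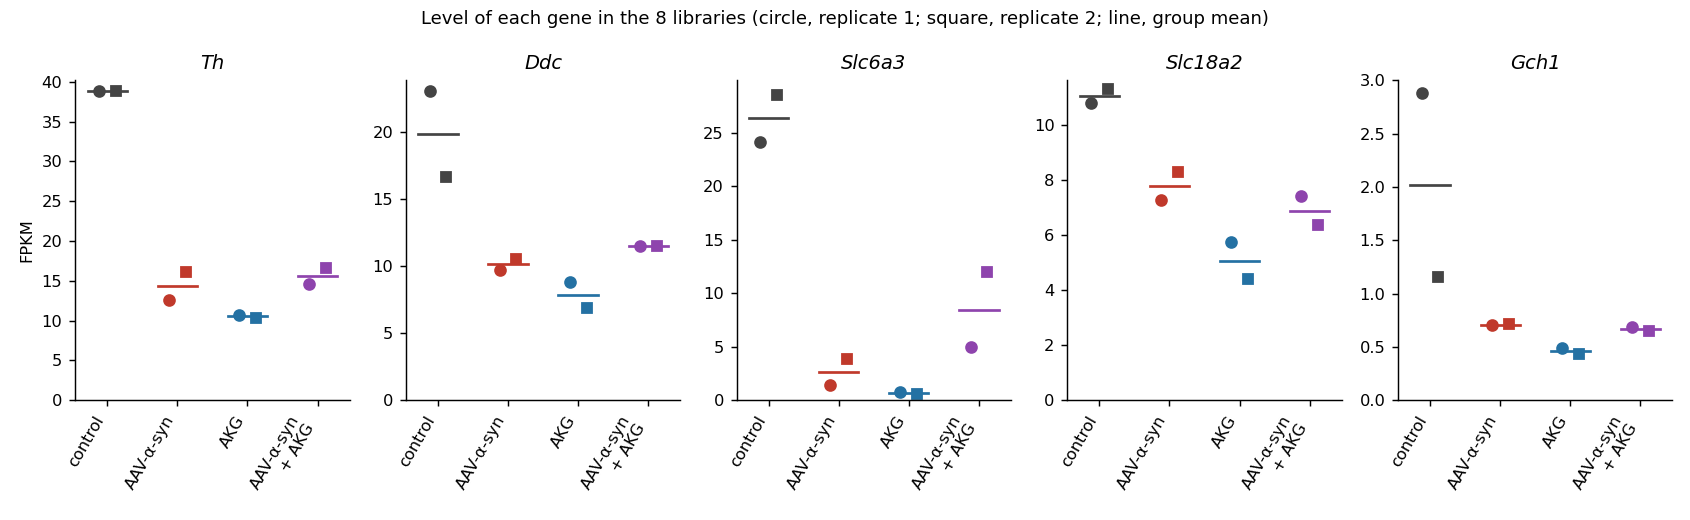
Level of each gene in FPKM on a linear axis that starts at 0, with 1 point for each of the 8 libraries (circle, replicate 1, and square, replicate 2) and a line at the group mean. The control points lie above all others in each panel, the AKG points lie below all others, and the Slc6a3 panel has the widest spread between groups, from 0.615 to 28.5 FPKM.

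Th, the rate-limiting enzyme (ENSMUSG00000000214, chromosome 7, 142892752 to 142931128, minus strand), had the highest mean level of the 5. It was at 38.8 FPKM in both control libraries, at 12.6 and 16.1 in the vector libraries, at 10.7 and 10.4 in the AKG libraries, and at 14.6 and 16.6 in the combined libraries. The 3 treated groups thus held 37.0%, 27.1% and 40.1% of the control mean, and the vector and combined groups overlapped. The far end of the gene comes from 2 long transcripts (Th-202 and Th-206 in GENCODE M21), while Th-201 begins at 142900014, near the start shown above. Th fell in the AKG group by 1.79 ± 0.13 (estimate ± SE, n = 2 per group) on the log2(FPKM + 1) scale, a scale that understates the change of low genes (limma, Benjamini-Hochberg adjusted p = 0.0414). It was the single gene called of the 13716 in that comparison, 0.00729% of those tested. Without the first control library the estimate was the same to 2 decimals and the adjusted p from limma was 0.283. Of the 8 fits that left out 1 library, the one without the second control library called Th, with a limma adjusted p of 0.00349, and the other 7 did not. The control values of Th lay closer together than counting error alone would place them, since the exact 95% Poisson intervals of the 2 libraries, which cover counting error only, ran from 37.1 to 40.7 and from 37.0 to 40.7 FPKM.

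Th also differed from control by -1.38 ± 0.13 in the vector group (limma adjusted p = 0.229) and by -1.27 ± 0.13 in the combined group (adjusted p = 0.202), neither past the threshold of 0.05. With the first control library left out, these estimates were the same to 2 decimals, with limma adjusted p of 0.646 and 0.877. In both comparisons limma called 0 genes (0% of those tested), as did voom on recovered reads, while 2305 and 1907 genes had an unadjusted p under 0.05. Set against the vector group, the combined group differed in Th by 0.12 ± 0.13, with a 95% interval of -0.20 to 0.43. This interval leaves room for a change of Th in either direction when AKG was given with the vector.

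Ddc, the decarboxylase (ENSMUSG00000020182, chromosome 11, 11814101 to 11898144, minus strand), was at 23.1 and 16.7 FPKM in control, at 9.74 and 10.6 in the vector libraries, at 8.81 and 6.91 with AKG, and at 11.5 in both combined libraries. No treated library reached the lower control library, and the 3 treated groups held 51.0%, 39.5% and 57.9% of the control mean. On the log2(FPKM + 1) scale, Ddc differed from control by -0.89 ± 0.17 for the vector, by -1.23 ± 0.17 for AKG and by -0.72 ± 0.17 for both, with limma adjusted p of 0.294, 0.269 and 0.349. Without the first control library, which had the higher Ddc level, they were -0.67, -1.01 and -0.50. An antisense transcript, 1700042O10Rik, lies within Ddc and had 37 reads in the first control library and at most 2 in any other. Whether counting used the strand is not given in the sources used, so reads of the pair may not be separable, and 37 reads compare with 1993 counted for Ddc in that library.

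Gch1, the first enzyme of BH4 synthesis (ENSMUSG00000037580, chromosome 14, 47153895 to 47189413, minus strand), was the lowest of the 5 genes. It was at 2.88 and 1.16 FPKM in control, which is 348 and 133 reads, and at 0.702 and 0.716 in the vector group. With AKG it was at 0.486 and 0.434 FPKM, which is 56 and 46 reads, and in the combined group at 0.683 and 0.653. The 2 control libraries differed from each other by 2.49-fold, and all 6 treated libraries lay below the lower of them. When no filter on low values was set, the log2 differences from control were -0.76 ± 0.27, -0.99 ± 0.27 and -0.79 ± 0.27 (limma adjusted p of 0.512, 0.468 and 0.575). With the first control library left out, they were -0.34, -0.56 and -0.37, and without the second they were -1.18, -1.41 and -1.22. The size of the Gch1 difference therefore rested on the control library used, while its sign did not. The processed pseudogenes Gm18811 and Gm49134 lie within Gch1 and had at most 1 read in any library.

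Slc18a2, the vesicular transporter (ENSMUSG00000025094, chromosome 19, 59260878 to 59296012, plus strand), differed least. It was at 10.8 and 11.3 FPKM in control, at 7.28 and 8.30 in the vector libraries, at 5.74 and 4.41 with AKG, and at 7.40 and 6.35 in the combined group. The treated groups held 70.5%, 45.9% and 62.2% of the control mean. The vector and combined libraries overlapped, and the AKG libraries lay below both. The log2 differences from control were -0.46 ± 0.14, -0.997 ± 0.14 and -0.62 ± 0.14, with limma adjusted p of 0.294, 0.269 and 0.349. Without the first control library they were -0.49, -1.03 and -0.65. The antisense gene Gm29261 over the Slc18a2 start had at most 1 read.

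Slc6a3, the dopamine transporter (ENSMUSG00000021609, chromosome 13, 73536747 to 73578672, plus strand), had the widest range. It was at 24.1 and 28.5 FPKM in control, at 1.43 and 3.87 in the vector libraries, at 0.801 and 0.615 with AKG, and at 4.99 and 11.9 in the combined group. No 2 of the 4 groups overlapped, and the order from high to low was control, combined, vector, AKG. The mean in the AKG group was 2.69% of control, a 37.2-fold lower level, and rested on 51 and 36 reads. The vector group held 10.1% and the combined group 32.2% of the control mean. Within the vector group the libraries differed by 2.71-fold and within the combined group by 2.39-fold, and in both cases the exact 95% Poisson intervals of the 2 libraries did not overlap, so this spread exceeds counting error. The log2 differences from control were -2.99 ± 0.42 for the vector, -4.00 ± 0.42 for AKG and -1.63 ± 0.42 for both, with limma adjusted p of 0.294, 0.199 and 0.349. With the first control library left out, they were -3.10, -4.11 and -1.75. When only the AKG and control libraries were fitted, Slc6a3 passed the threshold (limma adjusted p = 0.0412) and Th did not (0.237).

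The level of Slc6a3 in the combined group depended on the library. The combined group was 3.20 times the vector group, a log2 difference of 1.36 ± 0.42 with a 95% interval of 0.37 to 2.34 (limma unadjusted p = 0.0141, adjusted p = 0.99996). Without the first combined library the difference of the combined group from control was -1.07, and without the second it was -2.19. In the comparison of the combined with the vector group limma called 0 genes (0% of those tested), voom called 0, and 186 had an unadjusted p under 0.05.

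**Figure D2:**
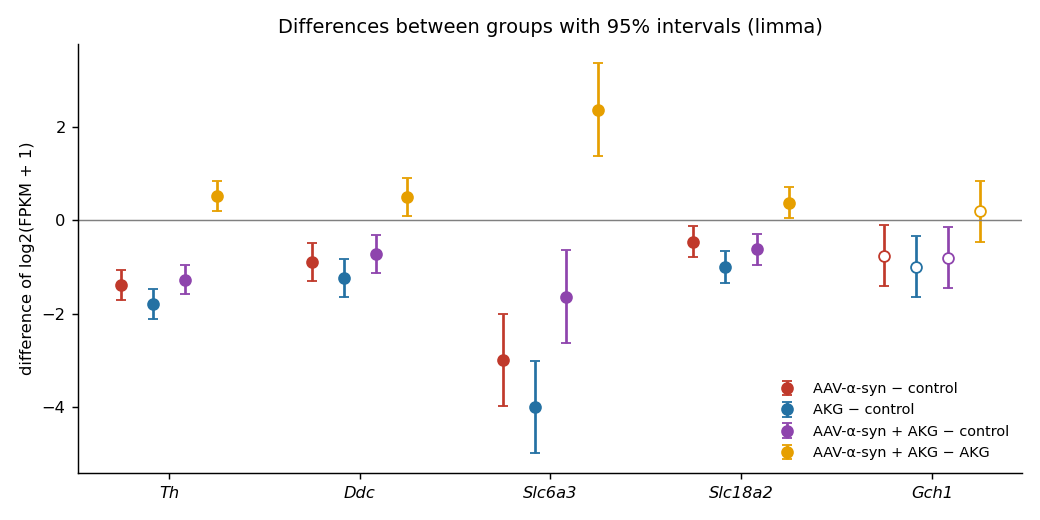
Differences between groups on the log2(FPKM + 1) scale for each gene, with 95% intervals from limma over 2 libraries per group, and a line at 0. Open circles mark Gch1, which was fitted without the filter on low values. All differences from control lie below 0, led by Slc6a3 with AKG at -4.00, and the combined group lies above the AKG group, by 0.19 for Gch1 to 2.37 for Slc6a3.

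The members can be read against all genes through their counts and medians. The median log2 difference from control of the 4 tested members was -1.14 in the vector group, -1.51 with AKG and -0.996 in the combined group, against medians of -0.01, -0.01 and -0.01 over all 13716 tested genes. All 5 members had both treated libraries below both control libraries in each of the 3 comparisons, where 27.6%, 26.4% and 20.5% of tested genes did so. The 3 comparisons share the control libraries. Without the second control library, which leaves the one that stood apart, limma called 3, 4 and 2 of the 4 tested members and 3359, 3376 and 2916 genes in all, and without the first it called 0 of each.

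The measured levels of the 5 genes were higher in the combined libraries than in the libraries with AKG alone. All 5 had both combined libraries above both AKG libraries, against 11.3% of tested genes. The log2 differences were 0.52 ± 0.13 for Th, 0.51 ± 0.17 for Ddc, 0.38 ± 0.14 for Slc18a2 and 2.37 ± 0.42 for Slc6a3, where the mean was 11.96 times that with AKG alone. None was past the threshold (limma adjusted p = 0.99994 for each). For Gch1, fitted with no filter on low values, the difference was 0.19 ± 0.27. Its 95% interval of -0.46 to 0.85 resolved no direction. In this comparison limma called 0 genes (0%), voom called 0, and 156 had an unadjusted p under 0.05. Against the vector alone, the combined group was higher without overlap for 2 members, Ddc and Slc6a3 (12.9% of tested genes), lower without overlap for Gch1 (11.4%), and overlapped for Th and Slc18a2. The 95% intervals of the combined minus vector difference were -0.24 to 0.58 for Ddc and -0.49 to 0.17 for Slc18a2. For Gch1, fitted with no filter on low values, the difference was -0.03 ± 0.27, with an interval of -0.69 to 0.62. No direction was resolved for Ddc, Slc18a2 or Gch1.

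The AKG group also lay below the vector group without overlap for all 5 members, against 13.9% of tested genes. The log2 differences were -0.40 for Th, -0.34 for Ddc, -0.54 for Slc18a2 and -1.01 for Slc6a3 (limma adjusted p = 0.9998 for each). Limma called 0 genes here (0%), voom called 0, and 161 had an unadjusted p under 0.05. For the difference in the vector's effect with and without AKG, the interaction, the estimates were 1.90 ± 0.19 for Th, 1.40 ± 0.24 for Ddc, 0.84 ± 0.20 for Slc18a2 and 5.35 ± 0.59 for Slc6a3. Their signs say that the combined group lay above the sum of the 2 single differences. Limma adjusted p-values were 0.276, 0.537, 0.537 and 0.283, with 0 genes called (0%), 0 by voom and 998 at an unadjusted p under 0.05. Without the first control library the estimates were 1.90, 1.18, 0.87 and 5.47, with limma adjusted p of 0.447, 0.813, 0.813 and 0.570. The pattern of vector below control together with combined above AKG, both without overlap, held for all 5 members and for 3.73% of tested genes.

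The proportions of the 5 genes within a library were also compared, and no ratio passed the threshold after adjustment. Because FPKM is per length, the level of each gene was set against that of Th. Slc6a3 had 0.621 and 0.735 FPKM per FPKM of Th in control, 0.113 and 0.240 in the vector libraries, 0.0747 and 0.0593 with AKG, and 0.343 and 0.721 in the combined group. The ratio was thus low in the vector and AKG libraries, and 1 combined library lay within the control range while the other lay below it. In an exact permutation test over the 105 ways to put 8 libraries into 4 pairs, p was 0.0190 for differences in any direction. After Benjamini-Hochberg adjustment over the 4 ratios the exact p was 0.0762, not past the threshold, with 0.00952 the smallest p the design allows unadjusted. The SD of the ratio was 0.0805 in control, 0.0901 in the vector group, 0.0109 with AKG and 0.268 in the combined group, so the combined libraries were the least alike.

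Relative to Th, Slc18a2 had its lowest values in control. Its ratio was 0.278 and 0.291 in control and 0.384 to 0.576 in the 6 treated libraries, so Slc18a2 held more of its control level than Th did in each of them (exact permutation p = 0.0571, adjusted 0.114). Ddc had 0.595 and 0.430 FPKM per FPKM of Th in control and 0.656 to 0.822 in the treated libraries, again without overlap (exact permutation p = 0.114, adjusted 0.152). Gch1 had 0.0742 and 0.0298 in control, which enclosed the 0.0394 to 0.0556 of the treated libraries (exact permutation p = 0.943, adjusted 0.943). With the first control library left out, the exact permutation p over 105 arrangements of 7 libraries was 0.0476 for Slc6a3, 0.162 for Slc18a2, 0.114 for Ddc and 0.0952 for Gch1, and the adjusted values ran from 0.152 to 0.162. The remaining control library then held the lowest Gch1 ratio of the 7.

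**Figure D3:**
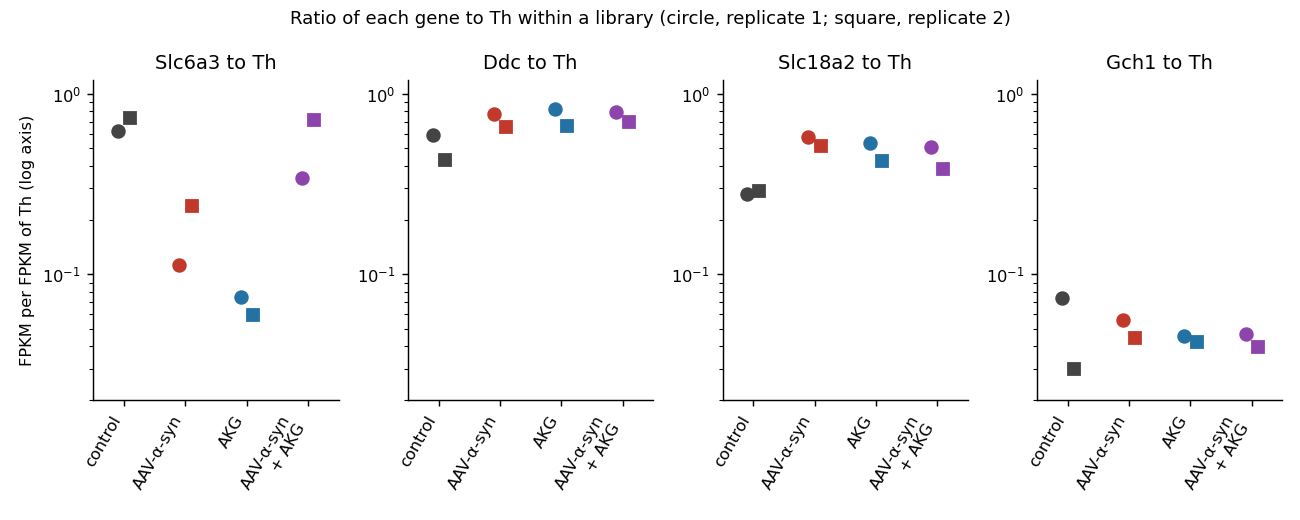
FPKM of each gene per FPKM of Th within each library, on a log axis shared by the 4 panels, with circles for replicate 1 and squares for replicate 2. The ratio of Slc6a3 spans 0.0593 to 0.735, whereas those of Ddc and Slc18a2 are higher in every treated library than in both control libraries.

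The genes whose pattern over the 8 libraries was most like that of the members were sought among 12245 genes, by Pearson's r on the log2(FPKM + 1) scale. These r describe 8 points that share their libraries and 4 group means, and carry no test. For the mean of the 5 members they were Pcnp (r = 0.981), Prps1 (0.975), Ssbp2 (0.971), Isca1 (0.970) and Rcan1 (0.963). Their group means covered a narrower range than the members did, as for Pcnp with 48.3 FPKM in control and 43.7, 41.5 and 44.1 FPKM in the vector, AKG and combined groups. For Slc6a3 the first was Slc10a4 (r = 0.981), a transporter-like protein of monoamine and cholinergic synaptic vesicles, at 5.51 and 6.66 FPKM in control, 1.41 and 1.96 in the vector libraries, 1.06 and 0.981 with AKG, and 1.86 and 4.86 in the combined group. Slc10a4 kept the order of the groups seen for Slc6a3, though its first combined library lay within the vector range. Next to Slc6a3 came Mrpl44 and Ephx4 (r = 0.974 for both). The nearest genes were Asphd2 for Th (r = 0.972), Pcnp for Ddc (0.980), Actr8 for Slc18a2 (0.988) and Hprt for Gch1 (0.993).

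Other genes of the pathway were taken as 6 lists, and in none of them was a gene called in any of the 6 comparisons between groups (limma, adjusted over all tested genes). Of the 8 BH4 genes 7 were tested, and all 7 had lower estimates in each treated group than in control, as did 51.2%, 51.4% and 50.8% of all tested genes. Their median log2 difference was -0.38 in the vector group, -0.34 with AKG and -0.28 in the combined group, and both treated libraries lay below both control libraries for 5, 6 and 2 of the 7, against 27.6%, 26.4% and 20.5% of tested genes, so the count in the combined group was near the background. Without the first control library the medians were -0.23, -0.24 and -0.17, and 5, 6 and 7 of the estimates were lower. The recycling enzyme Qdpr was at 122 and 168 FPKM in control, 121 and 99.9 in the vector libraries, 110 and 122 with AKG, and 108 and 175 in the combined group, so 1 combined library lay above both control libraries. Pcbd1, a second recycling enzyme, was at 67.4 and 54.4 FPKM in control and at 37.6 to 48.6 FPKM in the treated libraries. Pcbd2 was at 35.9 and 25.6 FPKM in control and at 17.8 and 16.1 in the vector libraries. With AKG it was at 23.2 and 24.4 FPKM, and in the combined group at 23.9 and 26.5, with overlap there. Spr, the last enzyme of BH4 synthesis, was at 19.3 and 16.7 FPKM in control and at 12.7 to 17.0 FPKM in the treated libraries, with overlap. Gch1 held a smaller share of its control mean than any of the 7 in each treated group.

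The enzymes on either side of the dopamine pathway were closer to control. The 3 genes of vitamin B6 metabolism, which supply the Ddc cofactor pyridoxal phosphate, had medians of -0.08, 0.01 and -0.05, or -0.06, -0.05 and -0.05 without the first control library. The 6 dopamine breakdown genes had medians of -0.16, -0.13 and -0.15, or -0.11, -0.03 and -0.06 without that library. Among them Maob, a monoamine oxidase, was at 42.9 and 35.0 FPKM in control and at 30.6 to 39.6 in the treated libraries, with overlap. Aldh1a1, an aldehyde dehydrogenase of a subset of dopamine neurons, was at 37.9 and 35.0 FPKM in control and at 21.0 to 32.4 in the treated libraries, without overlap.

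Of the 10 dopamine neuron transcription factors 6 were tested, with medians of -0.26, -0.31 and -0.32, or -0.14, -0.16 and -0.29 without the first control library. Nr4a2 (Nurr1), which in mice is needed for Th and Slc6a3 expression in developing dopamine neurons, was at 5.83 and 6.43 FPKM in control, 4.83 and 6.78 in the vector libraries, 3.46 and 8.60 with AKG, and 6.19 and 3.71 in the combined group. Its groups overlapped in every comparison. Pitx3 and En1 were below the filter and were named after their values were seen. Pitx3 was at 1.15 and 1.07 FPKM in control and at 0.0710 to 0.550 in the treated libraries. En1 was at 1.42 and 1.37 FPKM in control and at most at 0.405 in the treated libraries, with 1 vector library at 0. Both lay lower in every treated library than in control. Sox6, by contrast, was at 0.946 and 0.928 FPKM in control and at 1.195 to 1.477 FPKM in the treated libraries, higher without overlap, and Lmx1b, at 0.541 and 0.981 FPKM in control and 0.612 to 1.10 elsewhere, overlapped. Of the 6 tested, 5 had lower estimates than control in each treated group, Sox6 being the other, and none was called. Among all tested genes, 51.2%, 51.4% and 50.8% had lower estimates. Without the first control library, 5, 4 and 4 of the 6 estimates were lower.

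Of the 10 receptor and surface genes 8 were tested, with medians of -0.18, -0.15 and -0.15, or -0.49, -0.49 and -0.44 without the first control library, which had lower Ret and Drd2 than the second. The most abundant of them overlapped with control in at least 1 group: Dlk1 was at 20.4 and 19.5 FPKM in control and 14.8 to 27.1 elsewhere, Gfra1, a GDNF co-receptor, at 15.5 in both and 12.3 to 18.4, Ret, the GDNF receptor kinase, at 4.62 and 12.6 and 7.86 to 9.21, and the dopamine D2 receptor gene Drd2 at 6.14 and 11.0 and 6.10 to 9.88. Slc10a4 differed from control by -1.40, -1.81 and -0.79 on the log2 scale. Chrna6, a nicotinic receptor subunit of dopamine neurons named after its values were seen, was at 3.60 and 4.85 FPKM in control and at 0.766 to 2.21 FPKM in the treated libraries, with log2 differences of -1.10, -1.28 and -0.88. With the first control library left out, the differences were -1.52, -1.92 and -0.91 for Slc10a4 and -1.27, -1.45 and -1.05 for Chrna6. Slc10a4 and Chrna6 were not past the threshold in any group (limma adjusted p of 0.269 to 0.350).

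**Figure D4:**
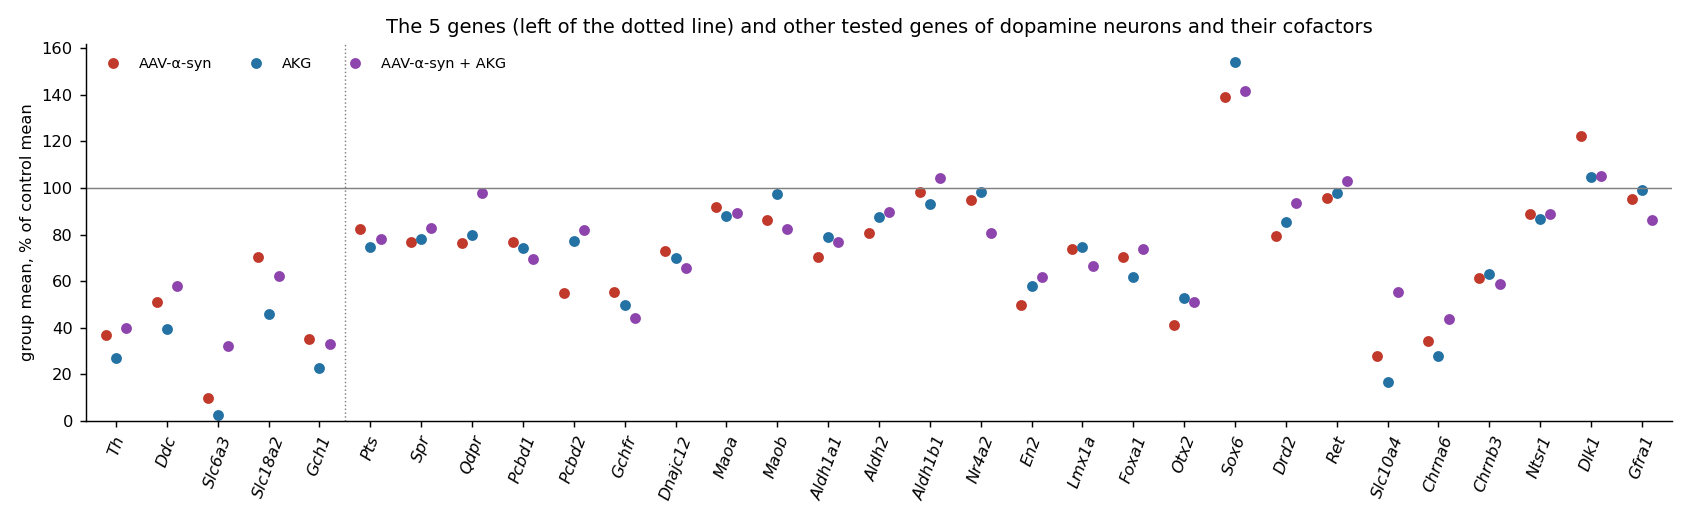
Mean level in the vector, AKG and combined groups as a percentage of the control mean for the 5 genes (left of the dotted line) and for tested genes of the BH4, breakdown, transcription factor and receptor lists, with a line at 100%. The 5 genes lie between 2.69% and 70.5%, and Slc10a4 and Chrna6 come lowest of the other genes in the vector and AKG groups. In the combined group Gchfr of the BH4 list and Otx2 of the transcription factor list lie below Slc10a4. Most of the remaining genes lie nearer to 100%.

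Other monoamine neurons were checked because they share 4 of the 5 genes. The noradrenaline neuron list of 4 genes, among them Dbh and Slc6a2, summed to at most 0.153 FPKM in any library. Of the serotonin neuron list 2 of 6 genes were tested, and its sum was 4.38 to 5.66 FPKM in control, 3.99 to 4.44 in the vector group, 3.19 to 3.55 with AKG and 4.12 to 5.18 in the combined group. Its defining genes Tph2 and Slc6a4 were at most at 0.306 and 0.137 FPKM. Defining markers of both neuron types were thus near 0 in the libraries where Th, Ddc and Slc18a2 were measured. No other source of the 5 genes was checked. The part of the cells behind the hypothalamic and pineal genes in these levels was not tested. The dopamine neuron genes Th and Slc6a3 were present in both control libraries, as the tissue label calls for. In the 6 treated libraries, which carry the same label, Th was at 10.4 to 16.6 FPKM. Slc6a3 ranged there from 0.615 FPKM in an AKG library to 11.9 FPKM in a combined library. The 6 hypothalamic neuropeptide genes, which the label does not call for, summed to 911 and 2648 FPKM in control, 1010 and 1012 in the vector libraries, 426 and 1218 with AKG, and 704 and 921 in the combined group.

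Summed markers of other cells are given beside these levels, without a test of the sums. The lists of GABA neurons and oligodendrocytes overlapped between control and each treated group. Astrocyte genes summed to 287 to 349 FPKM in control, 267 to 278 in the vector group and 260 to 276 with AKG. Microglia genes summed to 132 to 153 FPKM in control, 96.1 to 109 in the vector group and 103 to 121 with AKG. Neither list overlapped with control in the vector or AKG group. In the combined group the sums were 281 to 299 and 110 to 139 FPKM, with overlap. Striatal neuron genes lay below control without overlap with AKG, and pineal genes with AKG and in the combined group. The 10 dopamine neuron markers other than the 5 genes summed to 71.8 to 86.4 FPKM in control and 52.9 to 57.4 in the vector group. Their sum was 50.4 to 66.3 with AKG and 56.7 to 65.1 in the combined group. Aldh1a1 was the largest part of it, at 37.9 and 35.0 FPKM in control and 21.0 to 32.4 in the treated libraries. Slc10a4, Chrna6, Pitx3 and En1 also lay below control in every treated library. Nr4a2, Drd2, Ret and Ntsr1 overlapped with control in each treated group, and Chrnb3 did so with AKG. The 7 genes of thalamic and midbrain excitatory neurons were all tested, and their sum was 113 and 189 FPKM in control, 216 to 252 in the vector group, 278 to 279 with AKG and 237 to 254 in the combined group. All 7 had higher estimates than control in each treated group, though none was called. The 7 forebrain excitatory markers, 3 of them tested, summed to 121 to 152 FPKM in control, 173 to 192 in the vector group, 167 to 219 with AKG and 189 to 226 in the combined group. These sums were thus lower in both control libraries than in any treated library, the reverse of the 5 genes, and lowest in the first control library. The choroid plexus list ranged from 52.1 to 8916 FPKM and overlapped between all groups. The part of these markers in the levels of the 5 genes was not tested, and differences in what tissue was sampled and differences between treatments cannot be told apart here.

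**Figure D5:**
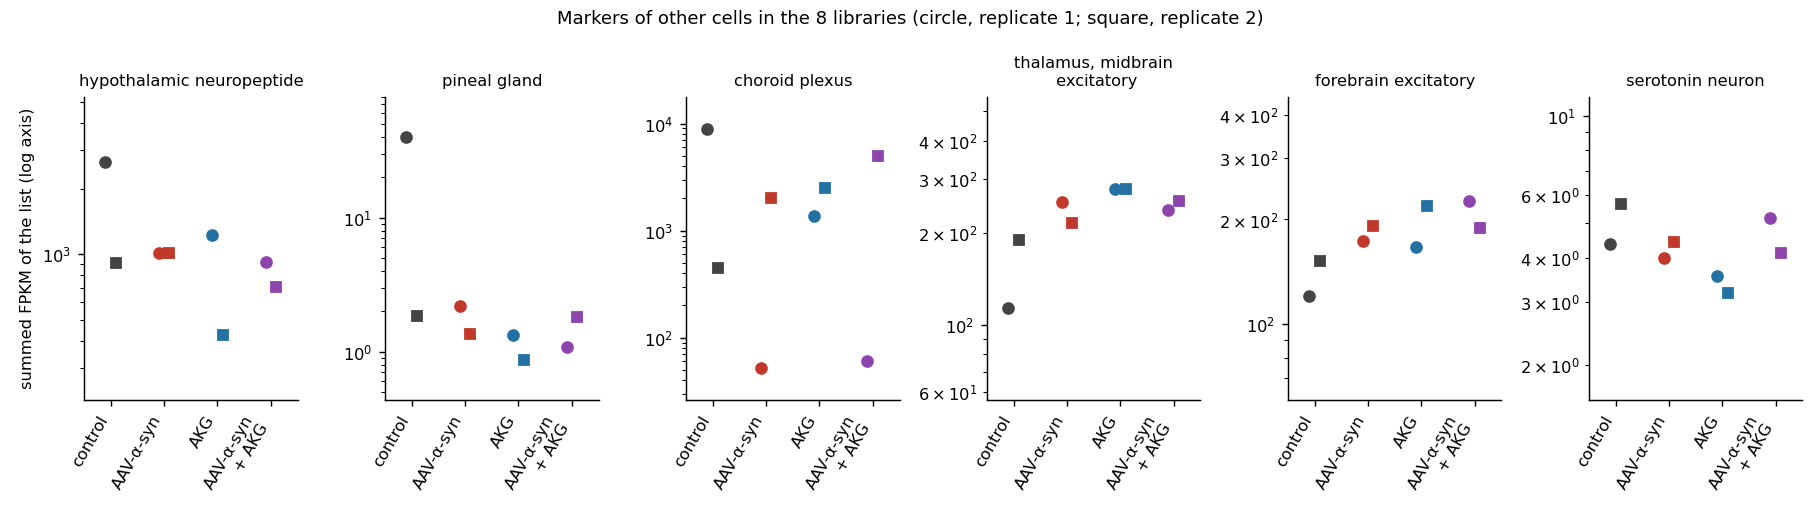
Summed FPKM of marker lists of other cells in each library, on log axes that differ between panels (circle, replicate 1, and square, replicate 2). The first control library is highest for the hypothalamic neuropeptide, pineal gland and choroid plexus lists, and both control libraries lie below all others for the thalamus and midbrain list and the forebrain list.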

How the data were processed

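RNA-seq of 8 libraries was used. Per the labels' protocols, RNA came from a Qiagen spin column, and a SMARTer kit for mRNA-seq was used for the libraries. The authors deposited FPKM values for 54532 genes with their lengths, per the file headers. The submitters' processing notes name GRCm38 and mm10, whereas aligner, counter and strandedness are not given in the sources used. FPKM times length gave whole reads for 100% of values (within 0.01), from which reads per gene were recovered.

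Tests used log2(FPKM + 1). The 13716 genes averaging 1 FPKM or more were fitted with limma 3.58.1 in R 4.3.3, with a mean for each of the 4 groups, trended eBayes, two-sided tests, Benjamini-Hochberg adjustment and a threshold of 0.05. Residual degrees of freedom were 4, and the prior's median was 2.98. The script was tested on simulated data. Ratios to Th were tested by an exact permutation test of their logs (spread within groups, any direction). The 5 genes, the lists and the tests were chosen with earlier results of these data known, and the pineal and neuropeptide lists after the libraries were compared. Besides the 5 genes, the text names the 4 most abundant genes of the longer lists, or some of them, and the genes most alike in pattern, passing over predicted genes and pseudogenes. Pitx3, En1, Lmx1b, Chrna6, Chrnb3, Ntsr1 and Gchfr are named outside this rule, as are markers of other cells. Promoter windows are from RefSeq, transcripts from GENCODE M21. Alternatives were other filters, pseudocounts and scalings, the replicate block, library weights, eBayes without a trend, the compared groups alone, voom on the recovered reads, removal of a gene length trend (spline with 5 degrees of freedom), and leaving out each library, where the lone sample left is assumed to vary like the other groups. The ratio tests and list medians without the first control library were added after seeing the data. After quantile or median-of-ratios scaling, the median log2 difference over all tested genes was at most 0.02 in size in any comparison. Python 3.11.15, pandas 2.3.3, numpy 2.4.6, scipy 1.17.1 and matplotlib 3.10.9 were used. Some genes of the lists are counted but not reported here by name.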

Additional observations from a re-analysis of the deposited data

Results flagged for a closer look

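For each of the 5 genes, both vector libraries lay below both control libraries, while both combined libraries lay above both AKG libraries, so the vector's difference had opposite signs without and with AKG. The interaction on the log2(FPKM + 1) scale was 1.90 for Th, 1.40 for Ddc, 5.35 for Slc6a3, 0.84 for Slc18a2 and 0.95 for Gch1. Limma's test of the interaction did not pass the threshold for any of them (adjusted p of 0.276, 0.537, 0.283 and 0.537, and 0.753 for Gch1 with no filter on low values). Of the tested genes, 3.73% showed the same pair of signs without overlap. Without the second control library limma called the interaction for 3 of the genes, Th, Ddc and Slc6a3, and for 1369 genes in all, whereas without the first it called 0 genes (limma adjusted p of 0.447 for Th and 0.570 for Slc6a3).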

How the results depend on the processing

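The differences of the tested members and Gch1 from control kept their negative sign in 261 of 261 values over genes, comparisons and alternatives. Most of these values could not have changed sign. No treated library of these genes overlapped with control, so leaving out 1 library could not reverse a difference. Other filters, the replicate block and eBayes without a trend left the estimates as they were. Th with AKG was called in 7 of 19 alternatives, with log2 differences of -1.88 to -1.64 and adjusted p of 0.00349 to 0.738. The members called against control with AKG, 1 here, were 0 with the replicate block, eBayes without a trend, library weights or the gene length trend removed, and genes called were 0 in each of these 4. With a pseudocount of 0.1, 2 genes were called with AKG and 1 in the combined group. With library weights 2 were called for AKG against the vector. With no filter on low values the genes called were 5 (vector), 12 (AKG) and 4 (combined) against control, 6 for combined against vector, 14 for combined against AKG, 13 for AKG against vector and 19 for any difference. Leaving out 1 library gave 0 to 3359 genes for the vector, 0 to 3376 for AKG, 0 to 2916 for the combined group, 0 to 1369 for the interaction and 0 to 1244 for any difference, and 0 to 3, 0 to 4, 0 to 2, 0 to 3 and 0 to 3 members. All counts above 1 came without the second control library, which leaves only the control library that stood apart, and the cause was not tested. Members without overlap between the combined and vector groups ranged from 3 to 5. The Th difference between these groups reversed to -0.0485 without the first vector library (range -0.0485 to 0.28), and the log2 Slc6a3 to Th ratio of the combined group against control ranged from -0.98 to 0.0947, the last without the first combined library. Medians of the BH4 and breakdown lists were nearer to 0 without the first control library, and those of the receptor list farther from it. Whether replicate numbers pair the samples is not known. Replicate differences of 2 groups correlated across genes at -0.32 to 0.34, which cannot settle it. The block was not used for the results above. With 2 libraries a group, differences as small as those between the combined and vector groups for Th, Ddc and Slc18a2 are within the intervals, and Gch1 in the AKG group rests on 46 and 56 reads.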

Other observations

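Among monoamine genes outside dopamine synthesis, 4 of 10 were tested. Tph1, the tryptophan hydroxylase of the pineal gland, was at 7.98 FPKM in the first control library and at most at 0.281 FPKM in the other 7. Hdc, which makes histamine, was at 9.74 FPKM in that library and at 3.34 to 5.32 FPKM elsewhere. Slc29a4, a plasma membrane monoamine transporter, ranged from 7.46 to 14.4 FPKM with overlap between the groups.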
